A study of Mus musculus with 192 samples.

Results

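Transcripts of 4 scavenger receptor genes, Marco, Msr1, Olr1 and Scarb1, were followed in mouse bone marrow-derived dendritic cells exposed to microbial and synthetic ligands. These 4 of 23481 listed genes were chosen by how their counts moved when LPS (lipopolysaccharide) was added to other ligands. Groups with and without LPS both entered that choice, so the values of the 4 genes, for LPS and for every other ligand, are given as a description, with no p-value. Where these values are counted past a threshold, the count is for scale and supports nothing. All 4 passed the filter on low counts, as did 4720 genes in all. The cells came from female C57BL/6J mice aged 6 to 8 weeks and were grown in medium with 15 ng/ml of the growth factor GM-CSF, which every group shared. Each well of 100000 cells received its ligands for 6 hours. The 7 ligands act on receptors of innate immunity and were given alone and in every pair and triplet. The libraries form 64 groups of 3, which are Ctrl, 7 single ligands, 21 pairs and 35 triplets. Ligands are named as in the labels: PAM, LPS, HMW, Zymosan (zymosan depleted), SeV, cGAMP (3',3'-cGAMP) and CpGB. The labels give no doses, say nothing of what the Ctrl wells received, and do not state whether the 3 libraries of a group came from separate animals or cultures. The p-values then measure only the spread between these libraries, which may be technical.

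Scavenger receptors are cell surface proteins that bind modified lipoproteins, polyanions and microbial surfaces, and carry what they bind into the cell. Marco (macrophage receptor with collagenous structure) and Msr1 (scavenger receptor A) are class A receptors, trimers with a collagen-like stalk, known for the uptake of bacteria and modified low-density lipoprotein by macrophages. Olr1 (LOX-1) is a C-type lectin-like receptor for oxidized low-density lipoprotein. Scarb1 (SR-BI) is a class B receptor that takes up cholesterol from high-density lipoprotein.

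By the GENCODE annotation of GRCm38, the assembly also called mm10, Marco lies on the minus strand of chromosome 1 from 120474538 to 120505024, with up to 17 exons in a coding transcript. Msr1 lies on the minus strand of chromosome 8 from 39581685 to 39642673, Olr1 on the minus strand of chromosome 6 from 129485244 to 129507165, and Scarb1 on the minus strand of chromosome 5 from 125277087 to 125341094. Promoters are shown for Marco and Olr1, the 2 members that matched the promoter table. Each is the RefSeq window of 300 bases on GRCm38.p6 (250 before to 50 after the annotated start), 5′ to 3′ on the gene's strand. Capitals mark the motif matches named after them.
Marco, chr1:120504975-120505274, minus strand: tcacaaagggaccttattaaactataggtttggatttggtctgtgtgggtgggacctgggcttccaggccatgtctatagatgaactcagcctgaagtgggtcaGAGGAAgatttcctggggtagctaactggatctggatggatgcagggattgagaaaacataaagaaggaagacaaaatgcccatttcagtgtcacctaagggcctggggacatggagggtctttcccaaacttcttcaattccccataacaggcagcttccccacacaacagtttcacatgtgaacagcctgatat
Olr1, chr6:129507116-129507415, minus strand: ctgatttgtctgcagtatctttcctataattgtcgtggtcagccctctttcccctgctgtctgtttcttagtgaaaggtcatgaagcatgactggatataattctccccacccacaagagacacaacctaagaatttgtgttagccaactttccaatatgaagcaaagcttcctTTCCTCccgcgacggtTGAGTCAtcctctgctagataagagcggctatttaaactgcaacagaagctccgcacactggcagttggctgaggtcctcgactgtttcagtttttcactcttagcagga

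In both windows 4 motifs were searched on both strands. The PU.1 core GAGGAA had 1 match in the Marco window, starting 146 bases before the start site, and 1 in the Olr1 window, on the opposite strand at 76 bases before it. The AP-1 motif TGANTCA had 1 match in the Olr1 window, at 60 bases before the start site, and had no match in that of Marco. NF-kB (searched by its consensus) and the antioxidant response element (TGACNNNGC) had no match in either. Of 32851 promoter windows of this length, 28.3% held GAGGAA, 7.81% AP-1, 8.46% NF-kB and 12.4% the antioxidant response element. A match is a run of letters and not a measured binding site.

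Totals ran from 46564 to 610234 counts per library (median 171617), and from 61823 to 89530 in Ctrl, so 1 count stood for 2.02 to 19.9 counts-per-million (CPM). The labelled cell type was checked against marker lists. The 8 dendritic cell markers, of which 6 passed the filter, had a summed level of 6411 ± 245 CPM (SD, n = 3) in Ctrl, the lowest group, beside a median of 7778 CPM over the groups. Most of the Ctrl sum was H2-Aa (2126.5 CPM), H2-Ab1 (1525), H2-Eb1 (1365) and Cd74 (774). Of the 8, Zbtb46 had 0 counts and Flt3 1 count in the 3 Ctrl libraries. The 10 macrophage and monocyte markers, of which 9 passed, had a summed level of 12877 ± 633 CPM in Ctrl, the highest group, and 7268 CPM in the lowest, LPS + Zymosan + cGAMP. The summed neutrophil markers lay between 535 and 967 CPM over the groups. No T cell, B cell or mast cell and basophil marker had a count in Ctrl.

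Over the 500 most variable genes, 103 libraries correlated more with some library of another group than with either of their own replicates. Each library could match far more libraries of other groups than replicates, so a small gap alone does not set it apart. In 6 of them, all of triplet groups, the gap was above 0.15, a limit set after seeing the data. The first libraries of HMW + SeV + CpGB and HMW + cGAMP + CpGB correlated at 0.231 and 0.222 with their own group, and at 0.755 and 0.734 with a library of the other of these 2 groups. Library 3 of PAM + HMW + SeV correlated at 0.542 with its own group and at 0.813 with a PAM + LPS library. The other 3 were library 3 of LPS + SeV + CpGB and the first libraries of Zymosan + SeV + cGAMP and HMW + SeV + cGAMP. The median library correlated at 0.76 with its closest replicate. Libraries were kept under their labels, and the counts for the 4 genes were also made without these 6.

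Marco was low in Ctrl and highest after PAM or CpGB. Its Ctrl libraries held 360, 324 and 326 CPM (337 ± 20.1, SD, n = 3). After PAM the 3 libraries held 5544, 5098 and 4723 CPM (5121 ± 411), the highest mean of the 64 groups. After CpGB they held 4901, 4340 and 3500 CPM (4247 ± 705). All 6 libraries of these 2 ligands lay far above the 3 of Ctrl.

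LPS alone placed Marco between these levels, at 1385, 1602 and 1383 CPM (1456 ± 126), again with no overlap with Ctrl. Zymosan gave 629 ± 29.5 CPM, HMW 441 ± 88.1, cGAMP 257 ± 51.8 and SeV 252 ± 26.1, the lowest of the 64 groups. The highest mean was 20.3-fold the lowest. In a bulk sample, fewer cells that express a gene and less RNA per cell cannot be told apart, here and for every value below. Ranked by mean, Marco groups next to each other overlapped in 62 of 63 pairs. The exception was Zymosan, whose lowest library (608 CPM) lay above the highest of HMW + Zymosan (591 CPM).

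**Figure D1:**
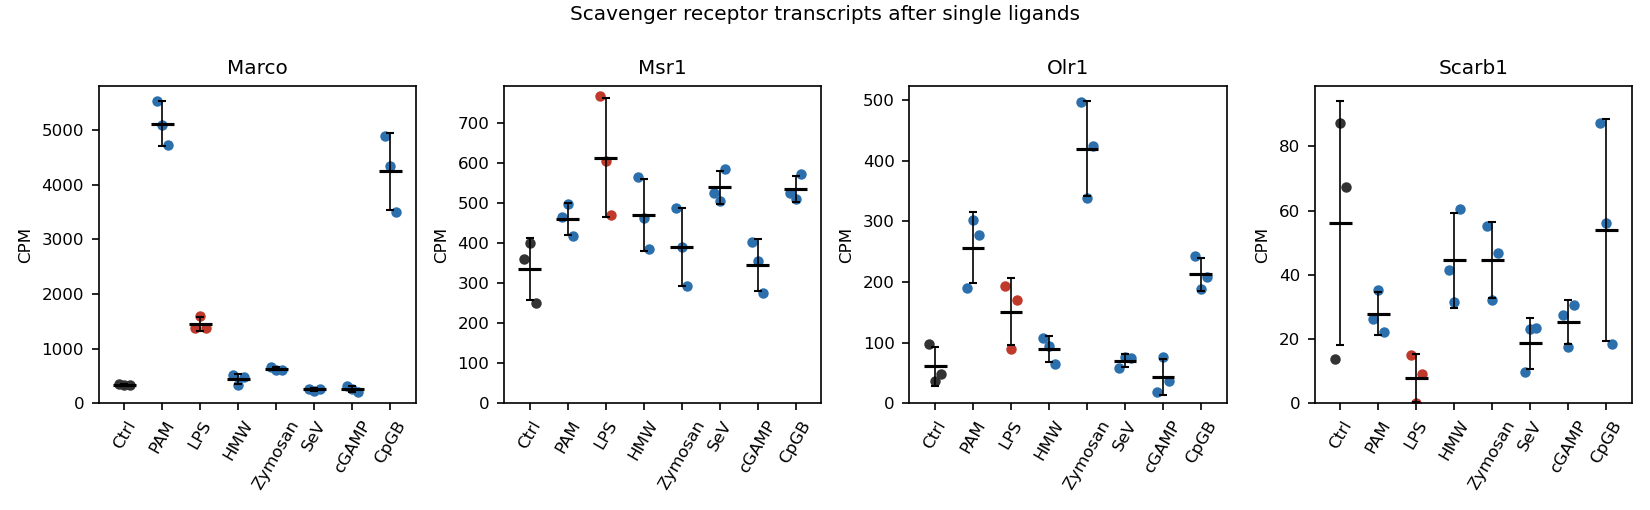
Level of each gene (CPM, linear axis) in Ctrl and after each single ligand. Points are the 3 libraries of a group, lines the mean and bars the SD; Marco stands at 5121 CPM after PAM and 337 CPM in Ctrl, and Olr1 at 420 CPM after Zymosan.

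Adding LPS moved Marco in opposite directions depending on the other ligands present. With PAM the libraries held 5544, 5098 and 4723 CPM, and with PAM + LPS 1531, 636 and 794 CPM (987 ± 478), a log2 difference of -2.45 (SE 0.19). The highest PAM + LPS library thus lay below the lowest PAM library. With CpGB the mean was 4247 CPM, and with LPS + CpGB the libraries held 1315, 1383 and 1481 CPM (1393 ± 83.3), a log2 difference of -1.59 (SE 0.18). From Ctrl to LPS the log2 difference was 2.12 (SE 0.25). PAM + CpGB without LPS stayed at 5744, 4820 and 4528 CPM (5031 ± 635), and PAM + LPS + CpGB stood at 1454, 909 and 1273 CPM (1212 ± 277).

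The sign of the Marco difference followed the presence of PAM or CpGB in all 22 backgrounds, a background being what the cells received besides LPS. In the 11 backgrounds with PAM or CpGB the difference ran from -2.45 (PAM) to -1.18 (cGAMP + CpGB) with a median of -1.69, and in all 11 every library with LPS lay below every library without it. In the 11 backgrounds with neither, it ran from 0.03 (Zymosan) to 2.42 (SeV) with a median of 1.63, and in 10 of them every library with LPS lay above. The exception was Zymosan, at 663, 608 and 616 CPM alone and 781, 295 and 890 CPM with LPS, where the ranges overlapped. Over all genes and backgrounds, 15% of such comparisons had every library with LPS above and 13.3% had every one below. By edgeR's quasi-likelihood test, LPS moved 9.87% of gene and background pairs past the threshold (a Benjamini-Hochberg adjusted p under 0.05 and a log2 fold change of at least 1). These shares are given for scale only, since the gene was chosen with this contrast known. Without the 6 libraries that stood apart, Marco again had 11 positive and 11 negative backgrounds, from -2.45 to 2.43.

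**Figure D2:**
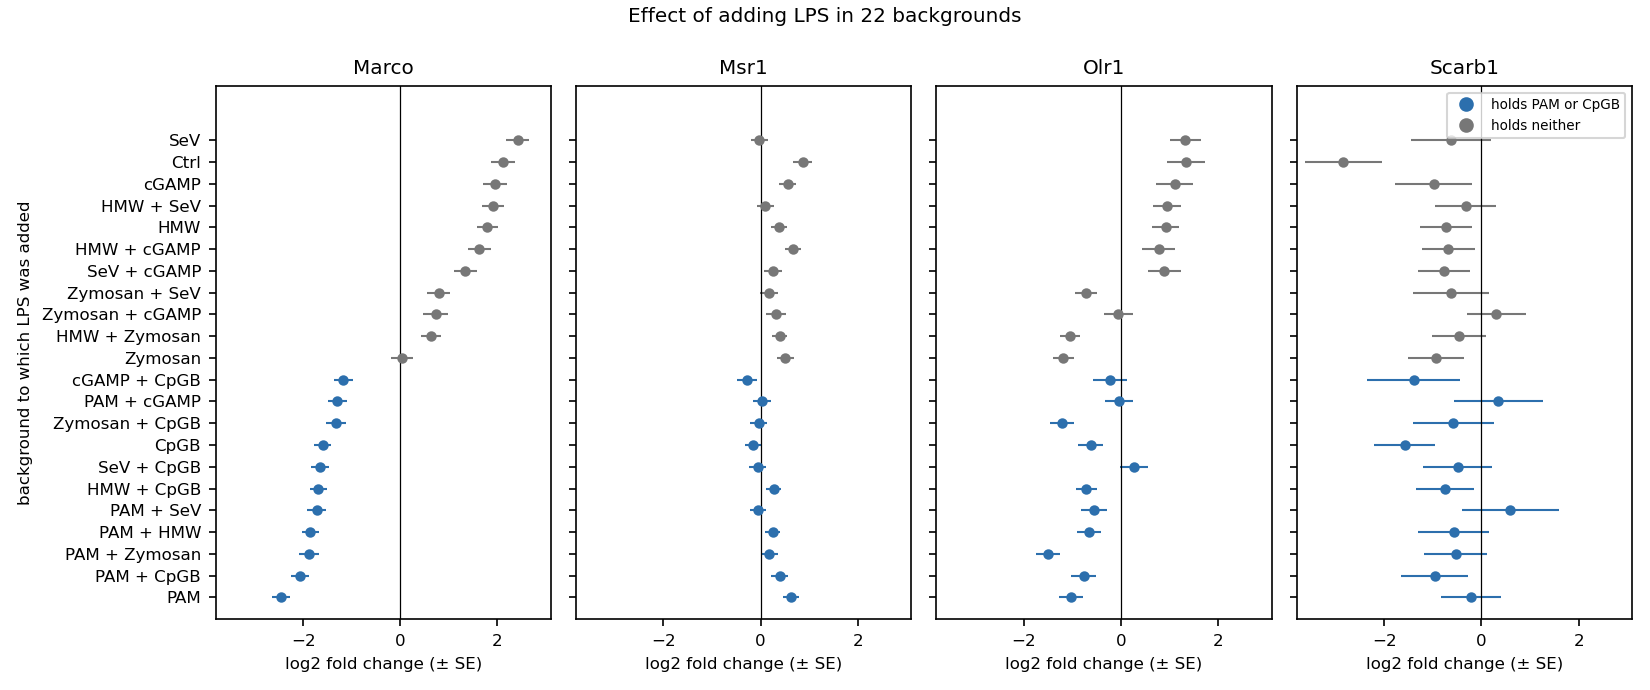
Effect of adding LPS (log2 fold change, bars are the SE) in each of 22 backgrounds, ordered by the value for Marco, for the 4 genes. Blue points are backgrounds that hold PAM or CpGB; for Marco all 11 of these lie below 0 and all 11 others above it.

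Groups with LPS covered a narrower range of Marco levels. The 22 groups with LPS lay between 555 and 1511 CPM (median 999), while the 42 without it lay between 252 and 5121 CPM. Groups with PAM or CpGB and no LPS had a median of 2517 CPM (27 groups, 912 to 5121), and those with LPS as well a median of 1076 CPM (11 groups, 709 to 1393). Groups with neither had a median of 337 CPM without LPS (15 groups, 252 to 629) and 913 CPM with it (11 groups, 555 to 1511). The PAM + HMW + SeV group held 3676, 3140 and 854 CPM, and the lowest is the library that resembled PAM + LPS.

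**Figure D3:**
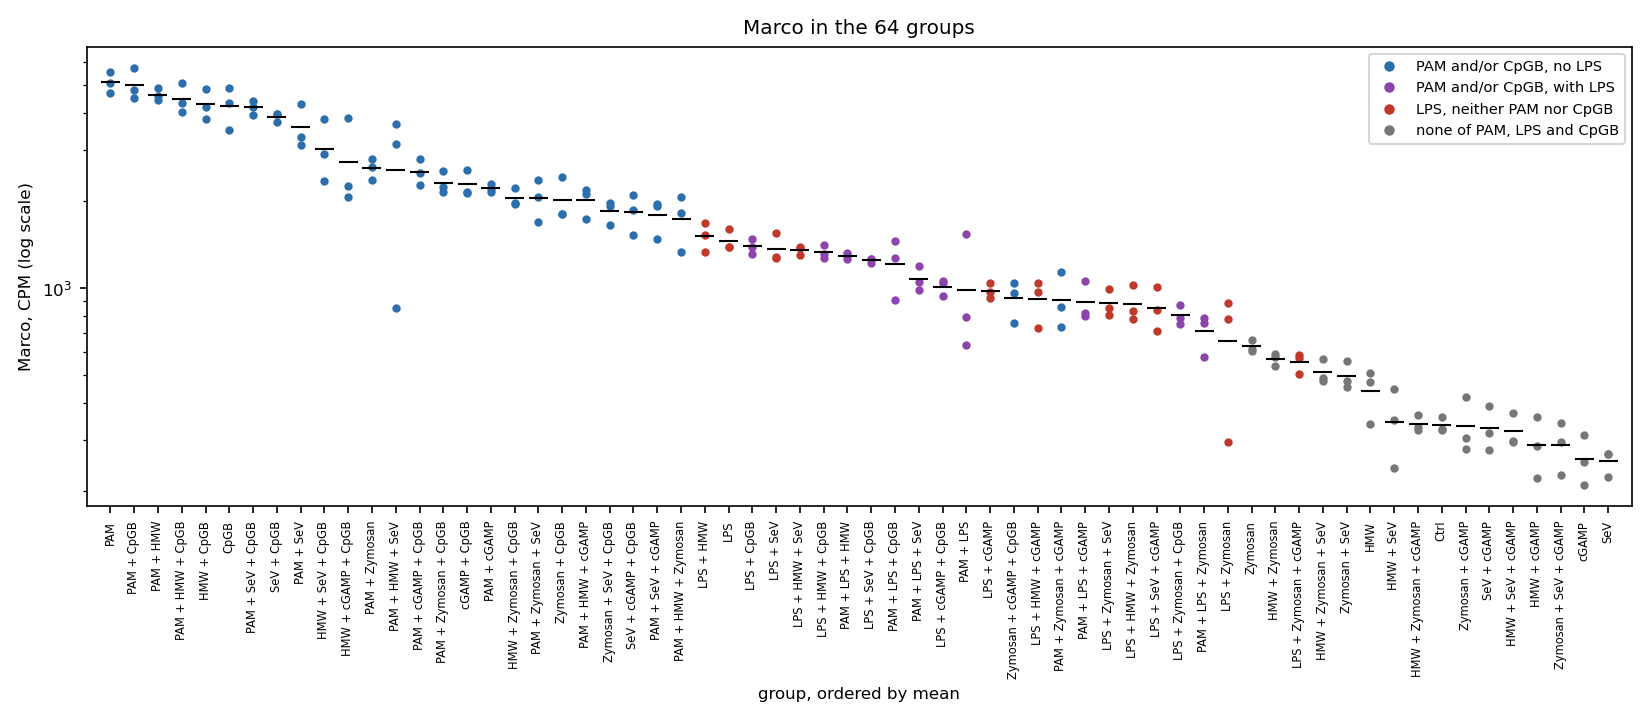
Marco level (CPM, log axis) in all 64 groups, ordered by mean; points are libraries, lines means, and colours the presence of PAM or CpGB and of LPS. The 27 groups with PAM or CpGB and no LPS run from 912 to 5121 CPM, and the 11 that also hold LPS from 709 to 1393 CPM.

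Msr1, the other class A receptor, moved within a much narrower range, from 250 CPM (HMW + Zymosan + cGAMP) to 688 CPM (PAM + LPS), or 2.75-fold. Its Ctrl libraries held 360, 399 and 250 CPM (336 ± 77.5, SD, n = 3), and its LPS libraries 767, 604 and 470 CPM (614 ± 149). The LPS libraries were all above those of Ctrl, with a log2 difference of 0.87 (SE 0.20), the highest over the 22 backgrounds. With PAM the values were 466, 498 and 417 CPM, and with PAM + LPS 538, 679 and 847 CPM (688 ± 155), a log2 difference of 0.62 (SE 0.16). Msr1 was thus higher with LPS in the PAM background, where Marco was lower. Over the 22 backgrounds the LPS difference was positive in 16 and negative in 6, with a lowest value of -0.28 (cGAMP + CpGB). The libraries with LPS lay above those without in 8 backgrounds, below in 1 and overlapped in 13. For scale, 15% of such comparisons over all genes lay above and 13.3% below. Every pair of neighbouring Msr1 groups overlapped.

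Olr1 was highest in groups with Zymosan. Its Ctrl libraries held 97.0, 37.4 and 48.0 CPM (60.8 ± 31.8, SD, n = 3), from 7, 3 and 5 counts. Zymosan libraries held 497, 339 and 425 CPM (420 ± 79.0), all above Ctrl. The highest group was PAM + Zymosan at 453, 435 and 429 CPM (439 ± 12.2), and the lowest was cGAMP at 18.3, 76.0 and 36.8 CPM (43.7 ± 29.4). PAM alone gave 190, 302 and 278 CPM (257 ± 58.6) and CpGB 243, 189 and 208 CPM (213 ± 27.3).

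Adding LPS to Ctrl gave Olr1 levels of 194, 88.7 and 170 CPM (151 ± 55.0), which overlapped with Ctrl, with a log2 difference of 1.33 (SE 0.40). Adding it to Zymosan gave 241, 152 and 156 CPM (183 ± 50.5), all below the Zymosan libraries, with a log2 difference of -1.19 (SE 0.22). The lowest difference was in PAM + Zymosan, at -1.51 (SE 0.24). In all, 8 backgrounds had a positive and 14 a negative difference, with libraries wholly above in 5 and wholly below in 11. The shares over all genes were 15% above and 13.3% below, given for scale only. Of the 11 backgrounds with PAM or CpGB, 10 were negative (median -0.66). Of the 11 with neither, 7 were positive, and the 4 negative ones all held Zymosan. Groups with LPS spanned 95.8 to 196 CPM, and those without it 43.7 to 439 CPM. Every pair of neighbouring Olr1 groups overlapped.

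Scarb1 had few molecules, with 0 to 13 counts per library, 784 over the whole series and none in 12 libraries. Its Ctrl libraries held 1, 7 and 7 counts (56.1 ± 38.0 CPM, SD, n = 3), the highest group mean. Its LPS libraries held 2, 0 and 2 counts (7.95 ± 7.49 CPM), which overlapped with Ctrl, with a log2 difference of -2.85 (SE 0.79). The difference was negative in 19 of 22 backgrounds and positive in 3. Libraries with LPS lay wholly below those without in only 2 (Zymosan and HMW + Zymosan) and overlapped in 20. Among all genes, 13.3% of such comparisons lay wholly below. At this depth most single differences of Scarb1 could not be resolved, and every pair of neighbouring groups overlapped. Without the 6 libraries that stood apart, the counts of positive and negative backgrounds were 16 and 6 for Msr1 (-0.26 to 0.94), 8 and 14 for Olr1 (-1.5 to 1.41) and 3 and 19 for Scarb1 (-2.77 to 0.59).

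Averaged over the 22 backgrounds, the log2 difference on adding LPS was -0.15 (SE 0.05) for Marco, 0.24 (SE 0.04) for Msr1, -0.13 (SE 0.06) for Olr1 and -0.67 (SE 0.16) for Scarb1, beside a median of -0.02 over all tested genes. With library sizes left unscaled, which moves that median by -0.13, the values were -0.29 for Marco, 0.11 for Msr1 and -0.26 for Olr1. For Marco and Olr1 this average joins positive and negative values. Over all genes, edgeR's quasi-likelihood test called 24.2% for LPS alone against Ctrl and, at a log2 threshold of 0.5 used for averages, 26% for the average.

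The 6 other ligands were set against Ctrl in the same way. These groups are the backgrounds of the LPS differences that chose the genes, so fitted log2 differences are given with their SE and no p-value. Counts past a threshold stand beside the share of all tested genes for scale only. Of 24 combinations of a gene and a ligand, 5 lay past an adjusted p of 0.05 and a log2 fold change of 1 in edgeR, all of them higher than Ctrl. The share of all tested genes called was 13.9% for PAM, 17% for CpGB, 6.25% for Zymosan, 15.6% for SeV, 17.6% for cGAMP and 0.975% for HMW. The log2 difference of Marco was 3.93 for PAM (SE 0.24) and 3.65 for CpGB (SE 0.24). That of Olr1 was 2.81 for Zymosan (SE 0.33), 2.14 for PAM (SE 0.36) and 1.82 for CpGB (SE 0.37). In each of the 5, all 3 libraries lay above all 3 of Ctrl.

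The other log2 differences from Ctrl were smaller for these 2 genes and for Msr1. Marco stood at 0.90 after Zymosan (SE 0.28), and Msr1 at 0.72 after SeV (SE 0.21) and 0.71 after CpGB (SE 0.20). For Marco the 95% intervals were -0.21 to 0.94 for HMW, -1.05 to 0.24 for SeV and -1.06 to 0.23 for cGAMP. Scarb1 ran from -1.51 (SeV) to -0.28 (CpGB), and without the Ctrl library that held 1 count its SeV value was -1.85.

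Averages over the 16 backgrounds without LPS showed the same ligands at the top. Marco stood 1.88 higher with PAM (SE 0.05) and 1.86 higher with CpGB (SE 0.05), and its average was -0.80 with cGAMP (SE 0.06) and -0.43 with Zymosan (SE 0.06). The averages of Olr1 were 1.07 with Zymosan (SE 0.07), 0.82 with PAM (SE 0.07), 0.52 with CpGB (SE 0.07) and -0.88 with cGAMP (SE 0.08). Those of Scarb1 were -0.67 with PAM (SE 0.17) and -0.52 with cGAMP (SE 0.18). Msr1 was farthest from 0 with cGAMP, at -0.33 (SE 0.05). Zymosan thus had averages of opposite sign for Marco and Olr1, but that of Marco joined positive and negative differences. Among all backgrounds, those with LPS included, 7 held none of PAM, LPS and CpGB. In these the Zymosan difference of Marco was positive in 6 and negative in 1 (median 0.41). In the 15 that held any of them it was negative throughout (median -1.07). The averages with cGAMP were below 0 for all 4 genes. Past an adjusted p of 0.05 and a log2 fold change of 0.5 lay 9 of 24 combinations, with all libraries and without the 6 that stood apart. The share of all tested genes called was 16.6% for PAM, 15.3% for CpGB, 14.3% for Zymosan, 32.2% for cGAMP, 17.1% for SeV and 1.44% for HMW.

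Over all 22 backgrounds 7 of 24 combinations lay past the same thresholds, where the share of all tested genes called was 12.4% for PAM, 11.2% for CpGB, 12.4% for Zymosan, 24.6% for cGAMP, 10.5% for SeV and 0.381% for HMW. They were Marco with PAM (1.31, SE 0.04), CpGB (1.37, SE 0.04), cGAMP (-0.71, SE 0.05) and Zymosan (-0.52, SE 0.05), and Olr1 with Zymosan (0.84, SE 0.06), PAM (0.59, SE 0.06) and cGAMP (-0.76, SE 0.06). Close to the fold threshold, Marco with Zymosan was -0.48 without replicate 1 of every group, and Olr1 with PAM was 0.46 with library sizes left unscaled. Scarb1 with PAM was -0.53 with unscaled sizes.

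Over the 6 backgrounds with LPS alone, Marco stood at -0.23 (SE 0.08) with PAM and 0.06 (SE 0.08) with CpGB. Olr1 stood at -0.02 (SE 0.11) with PAM and 0.22 (SE 0.11) with Zymosan. The cGAMP average of Marco was -0.45 (SE 0.08). For these 5 the value lay nearer to 0 than over the 16 backgrounds without LPS. The averages of Marco with Zymosan (-0.77, SE 0.08) and HMW (0.13, SE 0.08) lay farther from 0 over the 6. For Zymosan all 6 were negative (median -0.79), while the 16 joined 6 positive and 10 negative values. The 11 backgrounds with PAM or CpGB, some of which held LPS, were all negative with a median of -1.08. The Zymosan difference was thus not largest where LPS was present.

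**Figure D4:**
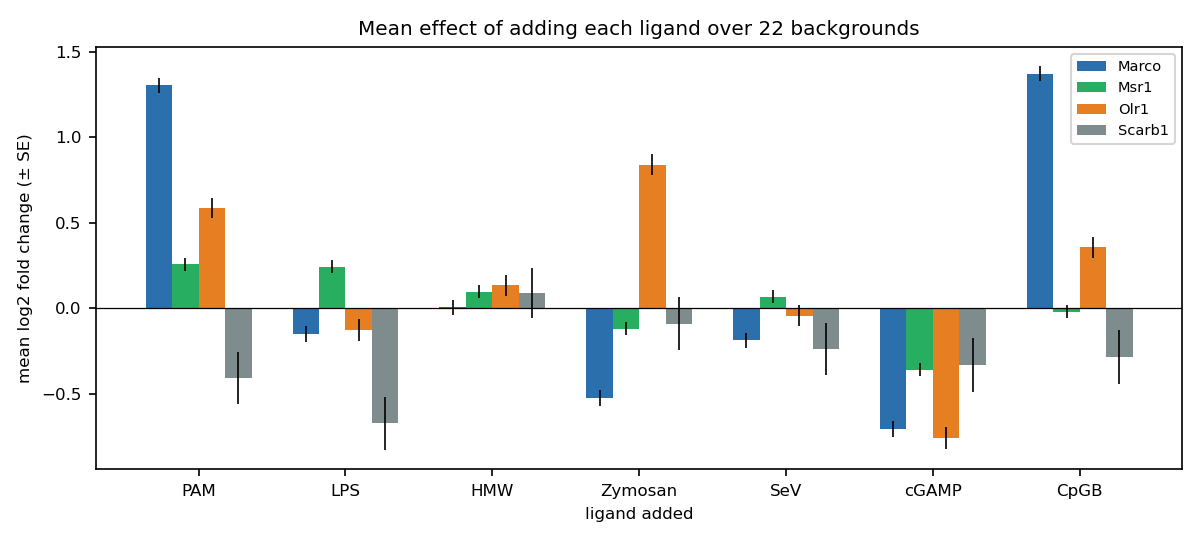
Mean effect of adding each ligand over 22 backgrounds (log2 fold change, bars from 0 with the SE) for the 4 genes. Marco stands at 1.31 for PAM and 1.37 for CpGB but at -0.15 for LPS, and Olr1 is highest for Zymosan, at 0.84.

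Background by background, values past the threshold (an adjusted p of 0.05 and a log2 fold change of 1) were counted over the 16 backgrounds without LPS. With PAM added, Marco lay past it on the higher side in 11 of the 16, which are those without CpGB, and with CpGB added in 11, which are those without PAM, against 3.53% and 3.45% of all gene and background pairs called higher. In those 11 backgrounds the PAM effect ran from 1.44 (Zymosan + cGAMP) to 3.93 (Ctrl), and in the 11 others, LPS included, from -0.64 (LPS) to 0.25 (CpGB). With Zymosan, Marco lay past it on the lower side in 7 of the 16 and on the higher side in 1 (1.05% of pairs were called lower and 2.85% higher). The 1 higher value, in the SeV background, was 1.00 on the log2 scale, and without the 6 libraries that stood apart it was 0.996 and missed the fold threshold. With cGAMP, Marco lay past it on the lower side in 5 backgrounds (3.49% of pairs called lower), each of which held PAM or CpGB, and its difference was negative in 15 of 16.

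For Olr1, Zymosan gave a positive difference in 16 of 16 backgrounds, from 0.11 (PAM + cGAMP) to 2.81 (Ctrl). It lay past the threshold in 7 (2.85% of all pairs were called higher). With PAM, Olr1 lay past the threshold on the higher side in 7 backgrounds and with CpGB in 4, and without the 6 libraries in 8 and 5. The shares of all pairs called higher were 3.53% for PAM and 3.45% for CpGB. With cGAMP, Olr1 lay past the threshold on the lower side in 5 backgrounds, all with Zymosan (3.49% of pairs called lower). Its difference was negative in 16 of 16. The lowest value was -1.78 (Zymosan + SeV), a background whose cGAMP group holds a library that stood apart, and without the 6 libraries the lowest was -1.65 (Zymosan). Scarb1 lay past the threshold on the lower side in 1 background with cGAMP (-2.13, PAM + Zymosan) and in 1 with CpGB (-2.36, SeV + cGAMP). Without the 6 libraries the count for CpGB was 2. For scale, 3.49% of pairs were called lower with cGAMP and 1.87% with CpGB. Msr1 did not lie past the threshold for any of the 6 ligands in these 16 backgrounds. For HMW and SeV none of the 4 genes did, where 0.667% and 5.31% of all pairs were called.

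**Figure D5:**
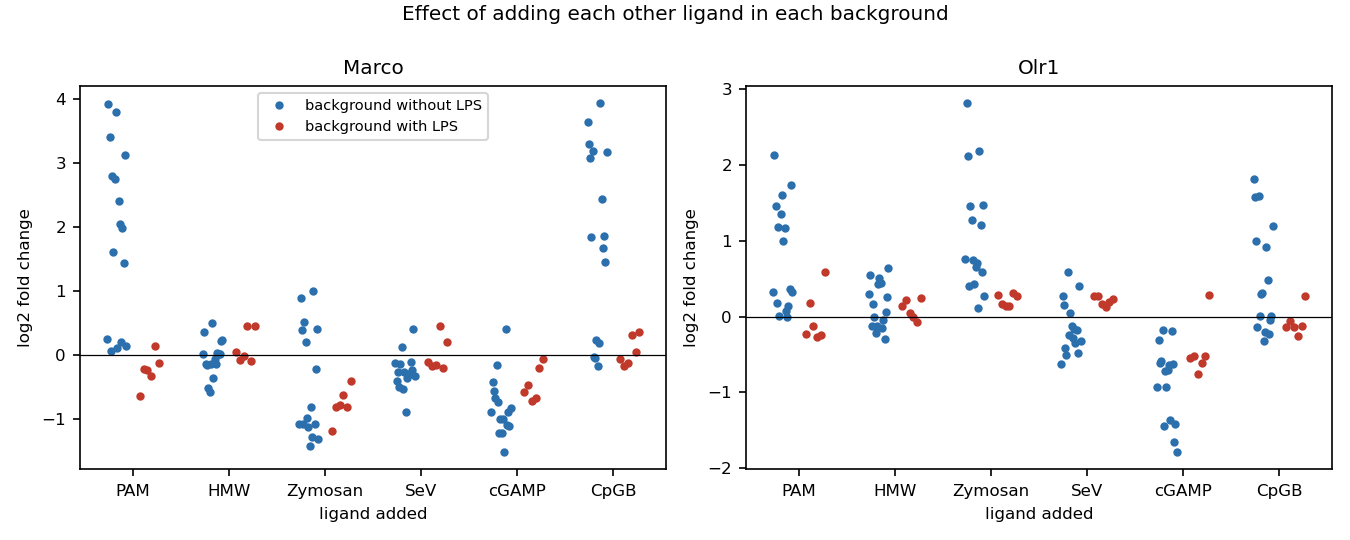
Effect of adding each of the 6 other ligands in each of 22 backgrounds (log2 fold change) on Marco and Olr1; each point is a background, blue without and red with LPS. For Marco the PAM points with LPS stay between -0.64 and 0.14, while those without LPS reach 3.93; for Olr1 all 22 Zymosan points lie above 0.

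Pairs were also set against the sum of their single ligands on the log2 scale, so that a negative interaction means that the pair gave less than the sum. These values share the Ctrl and single-ligand libraries and are again a description. Of 60 combinations of a gene and 1 of the 15 pairs without LPS, 9 lay past an adjusted p of 0.05 in edgeR, beside 3.21% of all gene and pair combinations. In the pairs that hold the 9, the share of all tested genes was higher than this pooled one, at 9.89% for PAM + CpGB, 9.66% for SeV + cGAMP, 6.76% for SeV + CpGB, 4.24% for PAM + Zymosan and 3.47% for Zymosan + CpGB. For Marco the interaction was -3.68 for PAM + CpGB (SE 0.30), where both single ligands and the pair stood at 4247 to 5121 CPM. It was -1.88 for PAM + Zymosan (SE 0.33), where the pair held 2621, 2364 and 2782 CPM, and -1.98 for Zymosan + CpGB (SE 0.33), where it held 2421, 1803 and 1798 CPM. All 6 of these pair libraries lay below every library of PAM or CpGB alone and above every Zymosan library.

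Olr1 had negative interactions in the same 3 pairs. They were -2.06 for PAM + Zymosan (SE 0.42), -2.05 for Zymosan + CpGB (SE 0.43) and -1.81 for PAM + CpGB (SE 0.45). Here the pairs with Zymosan stood at 439 and 351 CPM, near the 420 CPM of Zymosan alone. The interactions of Msr1 were -0.87 for PAM + CpGB (SE 0.27), where the pair stood at 405 CPM, and -0.88 for SeV + CpGB (SE 0.27), where it stood at 480 CPM. With every library thinned to the smallest total they were -0.45 and -0.44. That of Scarb1 was 2.54 for SeV + cGAMP (SE 0.89), from 3, 13 and 9 counts in the pair. With LPS in the pair, the Marco values were -4.56 with PAM, -3.71 with CpGB, -2.08 with Zymosan, -0.32 with HMW, -0.17 with cGAMP and 0.30 with SeV.

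The genes whose group means of log2 CPM ran most like a member's over the 64 groups were ranked by Pearson's r. The points share the same libraries, and the r values are a description. For Marco they were Emr1 (the older symbol of Adgre1, F4/80, a macrophage surface marker; r = 0.945), Rac2 (0.916), Cxcl3 (a chemokine that attracts neutrophils, 0.906), 1100001G20Rik (0.903) and Tmsb4x (thymosin beta 4, an actin-binding protein, 0.901). Emr1 held 287 ± 131 CPM in Ctrl, 856 ± 140 after PAM, 880 ± 20.9 after CpGB, 533 ± 74.6 after LPS, 442 ± 45.1 after PAM + LPS and 443 ± 30.1 after LPS + CpGB (SD, n = 3). Cxcl3 held 337 ± 63.7 CPM in Ctrl, 10887 ± 339 after PAM and 2383 ± 1858 after PAM + LPS.

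Since Emr1 is in the macrophage and monocyte list, the rest of the list was set beside it. Of the 9 markers tested, Ly6c2 (0.502) and Lyz2 (0.161) also had a positive r with Marco, and the other 6 ran from -0.483 (C1qc) to -0.146 (Csf1r). Mertk had 0 counts in Ctrl and was not tested. The summed list was 12877 CPM in Ctrl, 10888 CPM after PAM, 11084 CPM after CpGB and 8839 CPM after LPS. Most of each sum was Lyz2 (lysozyme), at 9450 CPM in Ctrl, 7852 after PAM, 7702 after CpGB and 6186 after LPS. The part of these markers in the Marco values was not tested.

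For Olr1 the most alike were Txnrd1 (thioredoxin reductase, r = 0.877), Hvcn1 (a proton channel, 0.867), Slc7a11 (the cystine transporter, 0.843), Il1f9 (a cytokine of the interleukin-1 family, 0.832) and Hsp90ab1 (a chaperone, 0.821). For Msr1 the highest was Lims1 (0.717), followed by Fas, Cp, Slc1a2 and Vnn3 down to 0.674. For Scarb1 it was Tyrobp (0.644), followed by Sept9, Csf1r, Sptssa and Rpsa down to 0.618. Among the members, Marco and Olr1 ran most alike (r = 0.568), followed by Marco and Msr1 (0.44), and Scarb1 had r values between -0.187 and 0.013 with the others.

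Other scavenger receptors and genes of lipoprotein and cholesterol handling were counted as lists. Of 16 other scavenger receptors 7 passed the filter. Averaged over backgrounds, LPS raised 1 and lowered 1 of the 7, where 14.9% of all tested genes were called higher and 11% lower. The list median was 0.10 beside -0.02 over all tested genes. After LPS alone 2 rose and 1 fell (14.6% and 9.6% of all tested genes), with a list median of -0.71 beside -0.06. Cxcl16, a chemokine and scavenger receptor for oxidized lipoprotein, rose by 1.00 on average (SE 0.03, adjusted p = 3.58e-80, edgeR's test). For LPS alone, its level was 866 ± 67.4 CPM, and in Ctrl it was 242 ± 68.3 CPM. Lrp1, a large endocytic receptor, fell by 0.87 on average (SE 0.07, adjusted p = 2.23e-29, same edgeR test). Its level was 128 ± 32.6 CPM after LPS alone and 410 ± 68.5 CPM in Ctrl. Cxcl16 and Lrp1 were named because they were called in this average, so their p-values are a description. After PAM alone 1 of the 7 rose and 1 fell (8.01% and 5.89% of all tested genes), after CpGB alone 2 rose and 1 fell (10.8% and 6.27%), and after Zymosan alone none passed (6.25% in either direction).

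Of 17 genes of lipoprotein uptake and cholesterol handling 15 passed the filter. Averaged over backgrounds, LPS raised 1 and lowered 7, beside the 14.9% and 11% of all tested genes given above, with a list median of -0.37 beside -0.02. The 4 largest changes were falls in edgeR's test. These genes were named for the size of this change, so the p-values are a description. Nceh1, a cholesteryl ester hydrolase, fell by 0.96 on average (SE 0.12, adjusted p = 4.91e-13), and its level was 154 ± 58.9 CPM in Ctrl and 23.6 ± 14.6 after LPS alone. Lipa, the lysosomal acid lipase, fell by 0.87 on average (SE 0.03, adjusted p = 5.71e-65, same edgeR test), and its level was 1406 ± 78.6 CPM in Ctrl and 470 ± 4.41 after LPS alone. Npc1, which exports cholesterol from lysosomes, fell by 0.79 and Fabp4, a fatty acid-binding protein, by 0.71. The 1 rise was Npc2, the partner of Npc1, at 0.52, named after its value was seen. Averaged in the same way, PAM lowered 3 of the 15 (5.89% of all tested genes) and raised none (6.53%), with a median of -0.33. CpGB lowered 2 (5.06%), Zymosan raised 2 (8.58%) and lowered 2 (3.81%), and cGAMP lowered 1 (10.3%). HMW and SeV moved none (0.381% and 10.5% in either direction).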

How the data were processed

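RNA was sequenced in 3 libraries for each of 64 groups, assigned by the ligands in the labels. The authors deposited counts of unique molecular identifiers (molecules, as whole numbers) per gene symbol, which they had not normalized. Per the submitters' processing notes, BWA 0.7.15 and mm10 were used; the annotation, how identifiers were collapsed and how multiply mapped reads were handled are not given in the sources used here. Identifiers limit, but do not remove, the effect of PCR copies. The tests used edgeR 4.0.16 (R 4.3.3): filterByExpr by group (4720 genes, 95.7% of counts), TMM library sizes, a quasi-likelihood fit with 1 coefficient per group over all libraries (128 residual degrees of freedom) and Benjamini-Hochberg adjustment within each contrast over all tested genes. A call needed an adjusted p below 0.05 and a log2 change, up or down, of 1 or more for single comparisons or 0.5 or more for averages over backgrounds; interactions needed the adjusted p alone. The tests planned for the 4 members are printed as differences and counts without p-values, since their groups entered the choice of the members. CPM are counts-per-million of counts in tested genes with TMM-scaled library sizes; log2 CPM used a prior count of 2. Adgre1 was read as Emr1, as listed.

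The members and gene lists were chosen with earlier results of these data known. The named genes were the 4 members, the 5 genes most alike each by Pearson's r, and of each list at most 4 with the largest called average change for LPS; Npc2 and single cell type markers were named beyond this rule, after their values were seen. No 2 libraries were identical, and every pair of replicates differed by more than counting noise (chi-square per degree of freedom at least 1.10). Deviations from the group means correlated at 0.018 on average between libraries of the same replicate number and at -0.009 between different numbers. Even so, 85.9% of libraries were on average closest to their own number. The labels do not say what the numbers mean, so they were not used as pairs in the main fit. Alternatives were RLE size factors, unscaled library sizes, no filter, thinning to the smallest total, DESeq2 1.42.0, a replicate block, leaving out replicates, fits on 2 groups and, chosen after seeing the data, leaving out the 6 libraries that stood apart.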

Additional observations from a re-analysis of the deposited data

Results flagged for a closer look

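In 9 cases the effect of a ligand on a gene differed by whether a second ligand, other than LPS, was present, with an interaction past the threshold in edgeR over all tested genes, beside 3.21% of all gene and pair combinations and 3.47% to 9.89% of all tested genes in the pairs concerned. These groups entered the choice of the genes, so the values are a description. On the log2 scale Marco differed by -3.68 for PAM + CpGB, -1.88 for PAM + Zymosan and -1.98 for Zymosan + CpGB. Olr1 differed in the same pairs, by -1.81 for PAM + CpGB, -2.06 for PAM + Zymosan and -2.05 for Zymosan + CpGB. Msr1 differed by -0.87 for PAM + CpGB and -0.88 for SeV + CpGB, and Scarb1 by 2.54 for SeV + cGAMP. In 3 further cases every library with LPS lay on one side of Ctrl, and on the other side of a second ligand once LPS was added to it, a difference that was not tested because LPS chose the genes. Marco differed by -4.56 between the Ctrl and PAM backgrounds and by -3.71 between Ctrl and CpGB. Msr1 differed by -1.01 between Ctrl and CpGB, and its LPS difference in Ctrl was 0.87. With CpGB its libraries held 524, 511 and 572 CPM, and with LPS + CpGB 465, 476 and 508 CPM. These ranges only just parted. Over all genes and backgrounds, 15% of comparisons had every library with LPS above and 13.3% every one below. The causes were not tested.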

How the results depend on the processing

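The numbers of values past the threshold for single ligands (5) and for averages over 22 backgrounds (7) stayed within a factor of 1.5 under the alternatives tried, except over only the 6 backgrounds with LPS, where 1 of the 7 averages lay past the threshold. All these counts are descriptions, since the groups entered the choice of the genes. With single replicates or libraries left out they ranged from 5 to 6 and from 7 to 8. The 9 pair interactions fell to 4 when every library was thinned to the smallest total, and to between 4 and 8 when 1 replicate of every group was left out. The lowest of these was without replicate 3. Marco in 3 pairs and Olr1 in PAM + Zymosan lay past the threshold in each setting tried. Thinning left Scarb1 below the filter on low counts, so it has no thinned value. What libraries of the same replicate number share is not given in the labels. Their mean correlation was 0.018, yet 85.9% of libraries were on average closest to their own number. That is a hint from the data and not the design. With the replicate number as a block the counts were 5, 7 and 9, and no value crossed the threshold. Leaving out the 6 libraries that stood apart, an alternative chosen after seeing the data, also gave 5, 7 and 9.

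Unscaled library sizes moved the median of all genes by -0.13 on the log2 scale in the average effect of LPS and by -0.30 in LPS alone. The averages for LPS were then -0.29 (Marco), 0.11 (Msr1) and -0.26 (Olr1). Thinned, those of Marco and Msr1 were -0.30 and 0.13. Leaving out 1 replicate put the average of Scarb1 between -0.96 and -0.51.

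Among effects past the threshold, only averages restricted to the backgrounds with LPS changed sign in the settings tried. Over these 6 backgrounds the averages that turned were PAM on Marco (-0.23), Olr1 (-0.018) and Scarb1 (0.29), SeV on Marco (0.0062), Msr1 (-0.16), Olr1 (0.21) and Scarb1 (0.17), Zymosan and cGAMP on Scarb1 (0.49 and 0.16) and CpGB on Olr1 (-0.073). Over the 16 others HMW turned on Marco (-0.043) and Scarb1 (-0.080), and CpGB on Msr1 (0.091). All further reversals were of values short of the threshold. Msr1 after cGAMP alone was -0.075 with RLE size factors, -0.19 with unscaled sizes, -0.075 with DESeq2, -0.015 in a fit on these 2 groups and -0.30 when thinned. Thinning also turned Msr1 after HMW (-0.053) and Olr1 after SeV (-0.40). The HMW average of Marco was -0.0058 with RLE, -0.015 unscaled, -0.0095 with DESeq2 and -0.050 thinned, and the SeV average of Msr1 was -0.0065 unscaled.

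With replicates or libraries left out, values for single ligands that turned ranged from -0.74 to 0.28 (HMW), -0.84 to 0.18 (Zymosan) and -0.91 to 0.43 (CpGB) for Scarb1, and after cGAMP from -0.087 to 0.28 for Msr1 and -1.12 to 0.50 for Olr1. Averages that turned ranged from -0.060 to 0.046 for Marco with HMW and from -0.19 to 0.15 for Scarb1 with Zymosan. With SeV they ranged from -0.011 to 0.14 (Msr1), -0.11 to 0.076 (Olr1) and -0.38 to 0.15 (Scarb1), and with CpGB from -0.075 to 0.040 for Msr1. The causes were not tested. Depth limits Scarb1 most, at 0 to 13 counts per library, and Olr1 in Ctrl, at 3 to 7.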
